A study of Mus musculus with 12 samples.

Results

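This report compares c-Kit-positive bone marrow cells collected 2 weeks (T1) and 2 months (T2) after the interferon inducer pIpC. Libraries were chosen by the time point in their labels alone, which gives 8 of the 12 libraries of the series, with 1 library for each of 4 genotypes at each time point. Of the 25454 cells deposited for these 8 libraries, 22535 entered the comparison. The 4 libraries taken 4 months after pIpC were not used.

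Every library is a single-cell RNA sequencing sample (10x Genomics 3' chemistry) of mouse bone marrow enriched magnetically for c-Kit, the stem cell factor receptor of hematopoietic stem and progenitor cells (HSPCs). The mice were on a C57BL/6 background and all received repeated pIpC injections. Per the labels they were 8 to 12 weeks old and the marrow was flushed from femurs and tibias, while the study's methods describe younger mice at the injections and crushed bones, and which holds for these libraries is not settled here. WT mice lacked Mx1-Cre. E2-KO mice carried Mx1-Cre and floxed Ezh2 on each allele (Mx1-Cre+;Ezh2 f/f), G12D mice carried Mx1-Cre and a heterozygous activating NRas allele (Mx1-Cre+;NRas G12D+/-), and G12D/E2-KO mice carried all of these. Mx1-Cre is a recombinase under the promoter of an interferon-induced gene, so it acts in any cell that responds to interferon and not only in blood cells. The labels give both time points the same age range, so the T2 mice were older when sampled if that range is the age at injection. Time after pIpC, age and the day a library was made cannot be told apart. Since each genotype has a single library at a time point, the 4 genotypes serve as paired replicates, nothing says how many mice each library holds, and p-values measure the spread of the change between these genotypes.

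pIpC is a synthetic double-stranded RNA. Cells sense it as they would a virus and secrete type I interferon, which acts through the receptor, JAK kinases and transcription factors such as STAT2 and IRF9 on promoters that hold an interferon-stimulated response element. The genes switched on there include RNA sensors, antiviral effectors and brakes on the pathway itself, and type I interferon is also known to push quiescent hematopoietic stem cells into cycle. CPM is the number of UMIs, or counted RNA molecules, of a gene per 1000000 UMIs of the library or cell class, and every log2 change is T2 minus T1. A gene is said to rise or fall only where its Benjamini-Hochberg adjusted p in edgeR's quasi-likelihood test was under 0.05.

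The libraries held 2350 to 3767 cells and 16831282 to 23646292 UMIs, with median UMIs per cell from 4186 (G12D/E2-KO T2) to 6975.5 (WT T2). Of the 5648 cells deposited for G12D T1, 2919 matched a cell of the G12D/E2-KO T1 table and were left out of G12D T1, which leaves 2729. Of the 2919, 2894 differed from their match in under 30% of their UMIs and 25 in more, and matching on log UMIs instead kept 34 dendritic cell-like and 35 megakaryocyte-like cells of G12D T1 against 26 and 31. Ezh2, the Polycomb methyltransferase, stood at 133 and 103 CPM in WT at T1 and T2 and at 86.5 and 103 CPM in G12D, against 20.7 to 27.9 CPM in the 4 libraries of floxed mice. Nras stood at 59.6 to 80.3 CPM, and 3' counts cannot tell the mutant from the normal allele. Kit, the gene behind the enrichment, was detected in each library at 43.7 to 80.8 CPM, and 10.5% to 38.9% of the cells of a library were late granulocyte-like, that is maturing cells. G12D T1 and G12D/E2-KO T1 stood apart from the other 6 libraries in ribosomal pseudogenes and in a few other genes described at the end, and several counts and medians are given without both NRas genotypes too.

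The promoters of 4 interferon-induced genes are printed to show the letters that this response reads. RefSeq windows (build GRCm38.p6, the build of mm10) of 250 bases before to 50 bases after the start site were searched on both strands for GAAA followed by any 2 bases and GAAA again, the core of the interferon-stimulated response element. Stretches of 120 bases are shown on the strand of the gene, 5′ to 3′, with matches in capitals, in which a run that starts with TTTC is the same motif on the other strand.

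Ifit1 (chr19:34640730-34640849, plus strand): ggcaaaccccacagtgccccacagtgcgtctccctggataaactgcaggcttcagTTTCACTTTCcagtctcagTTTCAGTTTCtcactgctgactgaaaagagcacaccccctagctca
Oas3 (chr5:120777670-120777789, minus strand): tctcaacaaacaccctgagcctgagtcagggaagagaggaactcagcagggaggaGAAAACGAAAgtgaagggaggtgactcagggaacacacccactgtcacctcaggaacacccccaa
Isg15 (chr4:156200832-156200951, minus strand): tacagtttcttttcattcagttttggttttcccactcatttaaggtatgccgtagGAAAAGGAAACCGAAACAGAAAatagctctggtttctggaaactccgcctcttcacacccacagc
Rsad2 (chr12:26456508-26456627, minus strand): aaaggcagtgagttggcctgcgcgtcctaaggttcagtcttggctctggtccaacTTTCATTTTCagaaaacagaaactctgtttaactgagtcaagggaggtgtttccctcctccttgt

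Ifit1 held 2 matches, Isg15 held 3 that overlap, and Oas3 and Rsad2 held 1 each. Of the 46 type I interferon genes tested, 33 had a window in the table and 15 of these (45.5%) held the motif, against 296 of 9232 windows of all genes tested (3.21%) and 3.49% of all 27025 windows. The windows of Irf7, Xaf1 and Ifi44 did not hold these letters. The median log2 change was -0.76 over the 15 interferon genes with the motif and -0.56 over the 18 without it, so both groups were lower at T2 in these descriptive medians. Among the 402 windows of genes with an unadjusted p under 0.05 that were lower at T2, 9.70% held the motif, and among the 238 of those higher at T2, 2.94% did.

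Over all cells, 12308 genes were tested and 2 were called (0.0162%), Ifit1 and Mcpt8, each of which fell from T1 to T2. Ifit1 (ENSMUSG00000034459; mm10 chromosome 19, 34640871 to 34650009, plus strand) encodes an antiviral protein that binds RNA without the host's cap marks. It stood at 5.82 CPM in WT T1 and 2.28 in WT T2, at 7.21 and 3.52 in E2-KO, at 8.94 and 2.22 in G12D, and at 28.1 and 8.73 in G12D/E2-KO. Each genotype was lower at T2, while the time points overlapped because G12D/E2-KO T2 lay above the WT and E2-KO libraries of T1. The log2 change was -1.57 (SE 0.18, edgeR adjusted p 0.0270). Mcpt8 (ENSMUSG00000022157; chromosome 14, 56082166 to 56085273, minus strand) encodes a protease of basophils. It stood at 45.6 and 19.5 CPM in WT, 60.9 and 17.8 in E2-KO, 73.3 and 29.7 in G12D, and 59.1 and 36.4 in G12D/E2-KO, so every T2 library lay below every T1 library. Its log2 change was -1.29 (SE 0.15, adjusted p 0.0270).

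Both calls depend on the pairing by genotype and on single libraries. Without the genotype block the adjusted p was 0.996 for each gene, while DESeq2 with the block gave 1.98e-08 for Ifit1 and 2.95e-11 for Mcpt8. The call of Ifit1 was lost without any library of G12D or G12D/E2-KO (adjusted p 0.242 to 0.283), and that of Mcpt8 without either G12D library (0.278 and 0.346). Without both NRas genotypes the log2 changes were -1.16 (adjusted p 0.112) and -1.48 (adjusted p 0.00298).

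**Figure D1:**
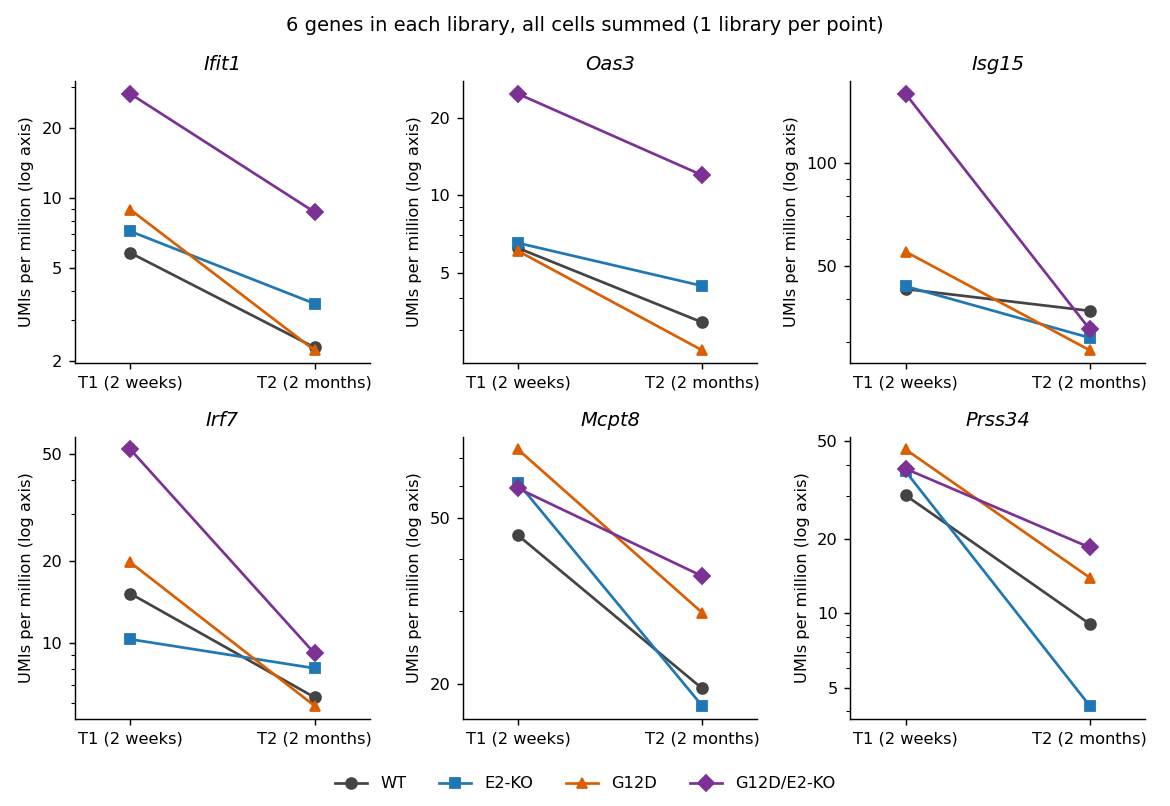
CPM (vertical log axes) of 6 genes at T1 and T2, with 1 point per library and a line joining the libraries of a genotype. Each line goes down; Ifit1 in G12D/E2-KO goes from 28.1 to 8.73, and every T2 point of Mcpt8, Isg15, Irf7 and Prss34 lies below every T1 point.

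At an unadjusted p under 0.05, 898 genes differed between the time points (7.30% of those tested), of which 575 were lower at T2 (4.67%) and 323 were higher (2.62%). Lower in all 4 genotypes were 709 genes (5.76%) and higher in all 4 were 1137 (9.24%). In 54 genes every T2 library lay below every T1 library (0.439%), and in 81 it lay above (0.658%). The counts for the gene lists below are to be read against these shares, since apart from Ifit1 and Mcpt8 no member passed the adjusted threshold over all cells.

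The type I interferon list was lower at T2 as a group. Of its 48 genes, 46 were tested, and 36 of them had an unadjusted p under 0.05 and were lower at T2, against 4.67% of all genes, while 0 were higher. In 32 of the 46 every genotype was lower at T2, against 5.76% of all genes, and the median log2 change was -0.74 against 0.01 over all genes tested. By genotype the median was lowest with NRas G12D (-0.86 in G12D and -0.78 in G12D/E2-KO), followed by WT (-0.54) and E2-KO (-0.12). Without both NRas genotypes, 12 of 44 members were lower at an unadjusted p under 0.05 (1.52% of all genes in that fit), 0 were higher, and the median was -0.34. The summed level of the list went from 4485 to 1970 CPM in G12D/E2-KO, from 1950 to 1128 in G12D, from 1634 to 1275 in WT and from 1638 to 1526 in E2-KO. G12D/E2-KO T1 lay above all other libraries, and in each genotype the T2 library was the lower.

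The 2',5'-oligoadenylate synthetases, which make the messenger that activates RNase L on foreign RNA, had differences larger in size than the median of the list. Oas3 stood at 6.24 and 3.21 CPM in WT, 6.53 and 4.45 in E2-KO, 6.08 and 2.50 in G12D, and 24.7 and 12.0 in G12D/E2-KO (log2 -1.0, SE 0.16, adjusted p 0.18). Oas1a had a log2 change of -1.42, Oas1g of -1.70, Oas2 of -1.23 and Oasl2 of -1.01, all lower in 4 of 4 genotypes. The cytosolic RNA sensors differed less: Ddx58 (RIG-I) had a log2 change of -0.41, Ifih1 (MDA5) of -0.24 and the RNA-activated kinase Eif2ak2 of -0.42, also lower in each genotype. Zbp1, a sensor of left-handed nucleic acid, had -1.02 and was lower in 3 genotypes.

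Among the regulators, Irf7, which amplifies interferon production, separated the time points. It stood at 15.2 and 6.30 CPM in WT, 10.3 and 8.07 in E2-KO, 19.8 and 5.86 in G12D, and 51.8 and 9.16 in G12D/E2-KO (log2 -1.54, adjusted p 0.580), so every T2 value lay below every T1 value. Stat2 did the same over a narrow range, from 6.85 CPM or less at T2 to 6.95 or more at T1 (log2 -0.36), and Irf9 had -0.54. Usp18, the protease that removes ISG15 and silences the receptor, stood at 5.76 and 2.66 CPM in WT, 5.53 and 4.03 in E2-KO, 4.6 and 1.54 in G12D, and 15.4 and 6.63 in G12D/E2-KO (log2 -1.11). Every T2 library lay below every T1 library in 4 of the 46 genes (Isg15, Irf7, Stat2 and Ifi44), against 0.439% of all genes.

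Of the effectors, Isg15, a ubiquitin-like protein, stood at 42.8 and 36.9 CPM in WT, 43.6 and 30.8 in E2-KO, 55.1 and 28.3 in G12D, and 160 and 32.6 in G12D/E2-KO (log2 -1.03, adjusted p 0.704). At T2 the 4 libraries lay close together, and the spread at T1 came from G12D/E2-KO. Samd9l, an antiviral growth suppressor, was more even over the genotypes, with 29.0 and 17.2, 18.5 and 14.3, 31.9 and 18.0, and 62.8 and 35.3 CPM in the same order (log2 -0.74, SE 0.12, adjusted p 0.18). Rtp4 had a log2 change of -1.21, Xaf1 of -0.85, Bst2 (tetherin) of -0.50 and Ifitm3, a block to viral entry, of -0.90, all lower in 4 of 4 genotypes. Ifi27l2a had the largest difference of the list (-1.75), from 1038 to 264 CPM in G12D/E2-KO, 96.5 to 13.7 in G12D, 77.1 to 22.4 in WT and 116 to 96.3 in E2-KO. Ifit2 was the member that went the other way (log2 0.14), and Mx2 was not analysed here.

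The share of cells with a UMI shows the same genes cell by cell. Isg15 was detected in 12.5% of cells in WT T1 and 9.32% in WT T2, in 13.6% and 10.4% in E2-KO, in 11.7% and 5.64% in G12D, and in 36.0% and 9.58% in G12D/E2-KO. Ifit1 was detected in 2.55% and 1.2% of WT cells, 3.39% and 2.00% of E2-KO cells, 2.64% and 1.12% of G12D cells, and 13.6% and 3.21% of G12D/E2-KO cells. Depth moved with these shares in 3 genotypes: the median UMIs per cell were higher at T2 in WT and lower in the others, most in G12D/E2-KO (6275.5 and 4186). With each cell thinned to 2000 UMIs, given as the expected share and leaving out 367 shallower cells of G12D/E2-KO T2, Isg15 was detected in 5.64% and 4.65% of WT cells, 6.76% and 4.78% of E2-KO cells, 5.96% and 2.92% of G12D cells, and 18.5% and 5.55% of G12D/E2-KO cells. Thinned shares of Ifit1 were 1.21% and 0.546%, 1.57% and 0.975%, 1.2% and 0.523%, and 6.01% and 1.74% in the same order, so both genes were detected in fewer cells at T2 in each genotype at equal depth. The most UMIs of Isg15 in 1 cell ran from 28 to 65 in the 8 libraries. Isg15 was most abundant in late erythroid-like cells, a class described below. The part of their share in the Isg15 values over all cells was not tested.

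**Figure D2:**
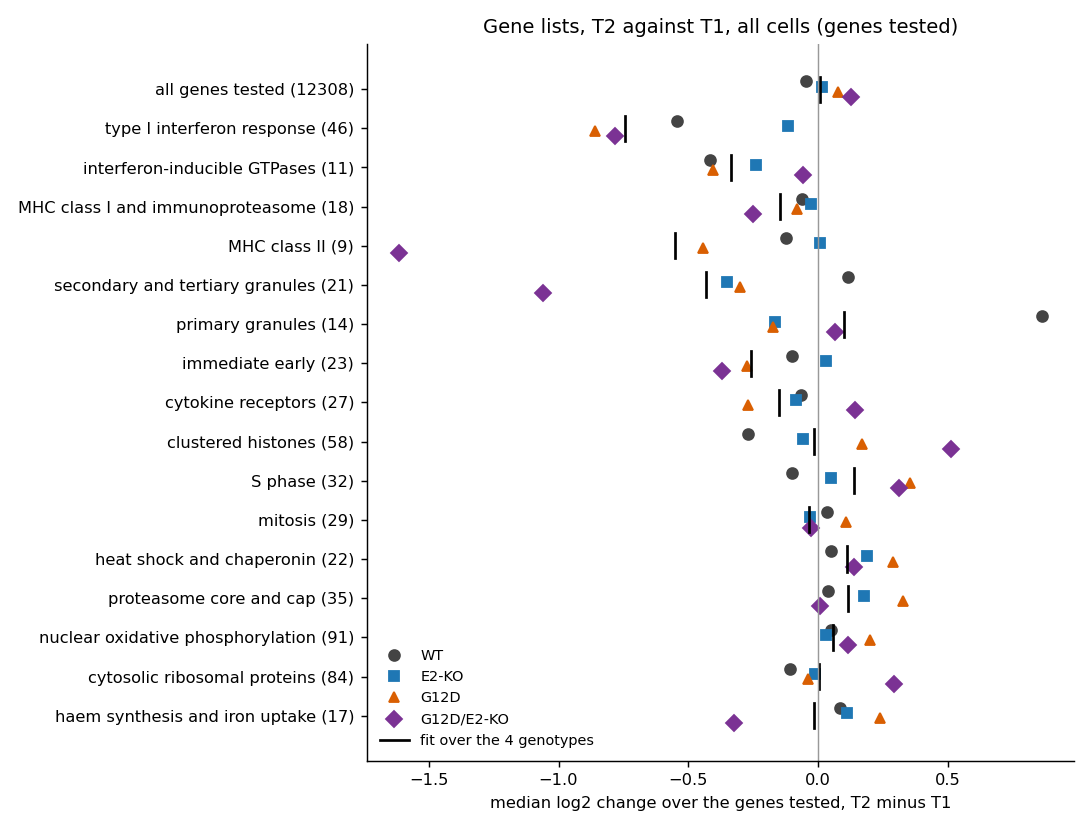
Median log2 change (T2 minus T1, horizontal axis) over the tested genes of 16 gene lists and of all genes, with 1 symbol per genotype and a black bar for the fit over the 4 genotypes. The type I interferon list lies left of 0 in each genotype, from -0.12 in E2-KO to -0.86 in G12D, while all genes lie between -0.05 and 0.13.

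Other gene lists tied to interferon follow. Of 11 interferon-inducible GTPases tested, which attack the vacuoles of intracellular microbes, 2 were lower at an unadjusted p under 0.05 and the median log2 change was -0.34 (-0.29 without both NRas genotypes). Gbp7 had a log2 change of -0.34, Igtp of -0.19 and Ifi47 of 0.18, and 9 of the list's 10 promoter windows held the motif. Of 18 genes of MHC class I and the immunoproteasome, 3 were lower at that p (median -0.15, and -0.01 without both NRas genotypes): H2-Q4 (-0.93, adjusted p 0.18), H2-T23 (-0.28) and the light chain B2m (-0.26). H2-Q4 stood at 10.0 and 5.88 CPM in WT, 11.4 and 8.67 in E2-KO, 19.4 and 8.71 in G12D, and 25.8 and 11.3 in G12D/E2-KO, lower at T2 in each.

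MHC class II genes, which present peptides on dendritic cells and B cells, had a median log2 change of -0.55, and 3 of 9 were lower at an unadjusted p under 0.05. Their sum was 270 and 238 CPM in WT, 187 and 194 in E2-KO, 231 and 194 in G12D, but 1856 and 368 in G12D/E2-KO, so the median rests on that genotype: it was -1.61 there, -0.44 in G12D, -0.13 in WT and 0.01 in E2-KO. H2-Aa reached 303 CPM in G12D/E2-KO T1, whereas the other 7 libraries ran from 12.1 to 51.1 CPM. The share of dendritic cell-like cells moved with it, from 4.70% in G12D/E2-KO T1 to 1.09% in G12D/E2-KO T2, and in bulk sums fewer cells of a type and less RNA per cell cannot be told apart. With clusters built on all 8 libraries a class of this name held 8.25% and 6.96%. There 739 of its cells came from a cluster led by Cox6a2, Ly6d, Dntt and Flt3, and 217 from a cluster led by Cd74 and H2-Aa. Without both NRas genotypes the median of the list was -0.06.

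Mcpt8 was followed into the cells that carry it. Basophil and mast cell-like cells numbered 16 and 24 in WT, 19 and 16 in E2-KO, 26 and 13 in G12D, and 46 and 39 in G12D/E2-KO, which is 0.539% to 1.51% of a library. Within them Mcpt8 stood at 5963 and 1501 CPM in WT, 8099 and 1618 in E2-KO, 7209 and 4209 in G12D, and 3380 and 2540 in G12D/E2-KO, so the level in the class was lower at T2 in 4 of 4 genotypes. Mcpt8 is also among the genes that lead the cluster behind this class, and the parts of cell number and of level per cell in its change over all cells were not tested. Outside the class it stood at 10.1 to 21.5 CPM at T1 and 10.3 to 14.7 CPM at T2. The class held 78.0% and 47.4% of the Mcpt8 UMIs in WT, 73.1% and 36.6% in E2-KO, 70.9% and 56.5% in G12D, and 75.5% and 59.9% in G12D/E2-KO. At the depth of each library, Mcpt8 was detected in more cells at T2 in WT (4.64% and 6.96%). It was detected in fewer in E2-KO (8.92% and 6.39%), G12D (9.60% and 6.59%) and G12D/E2-KO (7.56% and 5.87%). Prss34, the other basophil protease that leads this class, went the same way over all cells, at 30.1 and 9.05, 37.6 and 4.22, 46.1 and 13.9, and 38.5 and 18.5 CPM in the same order of genotypes (log2 -1.91, SE 0.32, adjusted p 0.380). Cpa3, a protease of mast cells and their progenitors, had a log2 change of -0.26 and was lower in 3 genotypes. Prss34 and Cpa3 were chosen after their values were seen, and the class was not fitted because it held under 20 cells in some libraries. Of the 12 basophil and mast cell markers tested, 6 were lower at an unadjusted p under 0.05, 0 were higher, and the median log2 change was -0.61 (2 of 10 lower and -0.11 without both NRas genotypes).

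Several genes of late granulocytes were lower at T2, though as a list not in WT. Secondary and tertiary granule genes, which encode the stores of maturing neutrophils, had 9 of 21 members lower at an unadjusted p under 0.05, 0 higher and a median log2 change of -0.43 (1 of 20 lower and -0.13 without both NRas genotypes), but the median was -1.06 in G12D/E2-KO, -0.35 in E2-KO, -0.30 in G12D and 0.12 in WT. Mmp8, neutrophil collagenase, stood at 37.5 and 13.7 CPM in WT, 2.84 and 1.21 in E2-KO, 26.4 and 7.80 in G12D, and 25.5 and 3.61 in G12D/E2-KO (log2 -1.90, SE 0.26, adjusted p 0.18). S100a9, a calgranulin, had a log2 change of -0.50 and Mmp9, gelatinase B, of -0.90. Of 14 primary granule genes, 2 were lower at that p, Lyz1 (-0.96, adjusted p 0.18) and Lyz2 (-0.78), while the median was 0.10 and Srgn, the proteoglycan that holds granule proteases, had 0.30. The share of late granulocyte-like cells was 27.9% and 29.6% in WT, 12.7% and 10.5% in E2-KO, 34.0% and 32.6% in G12D, and 38.9% and 21.7% in G12D/E2-KO, and its part in these values was not tested.

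Over all cells few proliferation genes passed an unadjusted p under 0.05. Of 32 S phase genes, 1 was higher at an unadjusted p under 0.05 (Rrm1, a ribonucleotide reductase subunit, log2 0.30) and 0 were lower, with a median of 0.14 (0.05 without both NRas genotypes). Within HSC/MPP-like cells 7 of the 32 were higher at that p (5.38% of all genes of the class), 0 were lower, 0 were called, and the median was 0.22. Mcm3 (0.24) and Mcm4 (0.23) of the replicative helicase were higher in 3 of 4 genotypes. The summed S phase level was 3086 and 3047 CPM in WT and 3290 and 3485 in E2-KO, and it went from 2318 to 2992 in G12D and from 2381 to 2845 in G12D/E2-KO. Among 29 mitosis genes, Cdk1, the mitotic kinase, was higher (log2 0.23) with every T2 library above every T1 library, while the median was -0.04, Kif20b had -0.22 and Hmmr -0.22. Of 58 clustered histone genes tested, Hist1h2ap and Hist1h2ae were lower in each genotype without overlap of the time points, with log2 changes of -1.15 (SE 0.20, adjusted p 0.288) and -0.98 (SE 0.21, adjusted p 0.420). Hist1h2bj had 0.40, and the median of the list was -0.02. These histone genes are near-identical copies, so reads may be split between them, and Hist1h2ap was high mainly in the NRas libraries of T1 (141 and 167 CPM, against 82.6 and 57.0 in WT and E2-KO at T1). Its log2 change was -0.72 without both NRas genotypes (edgeR adjusted p 0.389).

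Over all cells, genes of protein breakdown, protein folding and respiration had few members at an unadjusted p under 0.05. Of 35 proteasome genes, 4 were higher at that p, against 2.62% of all genes, and 0 were lower. Higher in all 4 genotypes were 10 of the 35, against 9.24% of all genes (median log2 change 0.11, and 0.13 without both NRas genotypes). The lid subunit Psmd6 had 0.35, Psmd3 had 0.30 and the ATPase Psmc6 had 0.25, each higher in 4 of 4 genotypes. Of 22 heat shock and chaperonin genes, 3 were higher and 1 was lower (median 0.11, and 0.13 with 0 members at that p without both NRas genotypes), with Cct3 at 0.30, mitochondrial Hspa9 at 0.33 and Hspa8 at -0.35. Within classes the median of this list ran from -0.19 in B lymphoid-like, -0.16 in Meg-like and -0.03 in MEP-like cells to 0.13 in GMP/early GN-like cells. Of 91 nuclear genes of oxidative phosphorylation, 6 were higher and 0 were lower at that p, and 17 were higher in all 4 genotypes (median 0.06). Ndufa9 had 0.35, Uqcrc1 0.30 and the assembly factor Ndufaf6 0.29. Of 13 mitochondrially encoded genes, 2 were higher, mt-Nd3 (0.47) and mt-Co2 (0.23), and mt-Nd4l had -0.31. Within HSC/MPP-like cells more members were higher at that p, against 5.38% of all genes of the class. There 11 of 34 proteasome genes were higher and 0 lower (median 0.18), and 12 of 89 oxidative phosphorylation genes were higher and 1 lower (median 0.14). None of these was called, and in MEP-like and B lymphoid-like cells 0 of 34 proteasome genes were higher at that p.

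Over all cells the remaining lists had medians within 0.26 of 0 and few members at an unadjusted p under 0.05. Immediate early genes had 4 of 23 lower, with Klf6 at a log2 change of -0.41, Fosl2 at -0.48 and Klf2 at -0.63, each lower in 4 of 4 genotypes. Within HSC/MPP-like cells 7 of 15 were lower at that p (6.16% of all genes, median -0.40), and within promonocyte-like cells 6 of 17 (5.70%, median -0.36). None was called, and the median was 0.17 in MEP-like and 0.03 in B lymphoid-like cells. The values that follow are again over all cells. Cytokine receptors had 3 of 27 lower: Csf2ra, a subunit of the GM-CSF receptor (-0.68), Cxcr2, the chemokine receptor of neutrophils (-0.70), and Ifngr2 (-0.33). Transcription factors of hematopoiesis had 3 of 43 lower, namely Irf8 (-0.57), which directs monocyte and dendritic cell fate, Hoxa7 (-0.36) and Ikzf2 (-0.42). Inflammatory cytokines and NF-kB targets had 4 of 19 lower, and the 3 lowest p among those at 5 CPM or more were those of Ccl6 (-0.58), Tnfaip2 (0.23) and Nfkbia (-0.15).

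Polycomb genes had 2 of 29 lower and 1 higher, with the demethylase Kdm6b at -0.48, Rbbp7 at 0.25 and Pcgf1 at -0.25. ERK feedback genes had 1 of 18 lower, the phosphatase Dusp6 (-0.43), with Phlda1 at -0.36 and Ier3 at -0.33. In stress response genes 1 of 22 was lower, Ddit4 (-0.60), while the chaperones Dnajb9 and Hsp90b1 had -0.28 and 0.24. Of 20 p53 targets 1 was higher, and Btg2 had -0.44, Sesn1 -0.22 and Aen 0.17. Of 20 glycolysis genes 1 was higher, Ldhb (0.30), and 1 lower, Pgk1 (-0.71), with Pfkm at 0.27. In cholesterol synthesis Idi1 had 0.17 and Sqle 0.19. Of 17 genes of haem synthesis and iron uptake 0 were lower or higher, and Slc25a37, Ppox and Tfrc had -0.21, -0.17 and -0.14. Of 84 cytosolic ribosomal protein genes 6 were lower and 2 higher (median 0.00), with Rpl9 at -0.74, Rpl7a at -0.36 and Rpl35 at -0.40. Of 8 globin genes 1 was lower and 1 higher, and Hba-a1, Hba-a2 and Hbb-bh1 had 0.08, 0.14 and 0.06. The sex-linked genes had 0 of 4 at that p, with Eif2s3y at -0.16, Kdm5d at -0.16 and Ddx3y at -0.08, and Xist stood at 0.613 CPM or less in each of the 8 libraries.

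Cells were next placed in classes, which are called like a cell type from its markers. WT cells of T1 and T2 were clustered, and mutant cells were assigned to the class of the WT cell closest to them. The 11 classes with enough cells were HSC/MPP-like (stem cells and multipotent progenitors), megakaryocyte-erythroid progenitor-like (MEP), megakaryocyte-like (Meg), early and late erythroid-like (EryP/early Ery and late Ery), granulocyte-macrophage progenitor and early granulocyte-like (GMP/early GN), late granulocyte-like (late GN), promonocyte-like (ProMo), dendritic cell-like (DC), basophil and mast cell-like, and B lymphoid-like. Cells of unnamed clusters made up 2.20% to 4.43% of a library.

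No share of a class passed the threshold between the time points (edgeR on cell numbers, 0 of 11 classes, with 1 class at an unadjusted p under 0.05). Megakaryocyte-like cells were the class higher at T2 in each genotype, at 2.04% and 3.09% in WT, 2.21% and 2.38% in E2-KO, 1.14% and 2.11% in G12D, and 1.51% and 2.71% in G12D/E2-KO. Their log2 change was 0.60 (SE 0.35, adjusted p 0.458), and an exact two-sided sign-flip test over the 4 genotypes gave p 0.13, the smallest it can give. Dendritic cell-like cells had the lowest p (log2 -1.16, SE 0.42, adjusted p 0.0988), at 0.723% and 0.422% in WT, 0.953% and 0.332% in G12D, and 4.70% and 1.09% in G12D/E2-KO, but 0.245% and 0.374% in E2-KO. This class held 6 to 143 cells per library. With clusters built on all 8 libraries a class of this name went from 8.25% to 6.96% in G12D/E2-KO (log2 -0.58, edgeR adjusted p 0.429). It is not the same class: 739 of its cells came from a cluster led by Cox6a2, Ly6d, Dntt and Flt3. That cluster scored 2.48 for dendritic cells and 2.09 for HSC/MPP. The other 217 cells came from a cluster led by Cd74 and H2-Aa, of which 61.3% were of G12D/E2-KO T1 and 16.6% of G12D/E2-KO T2. For the class built on WT cells, leaving out either G12D/E2-KO library gave -0.65, and leaving out both NRas genotypes -0.21. With cells matched on log UMIs the G12D T1 share was 1.24% and the log2 change -1.25 (edgeR adjusted p 0.0569).

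B lymphoid-like cells went in opposite directions, from 9.87% to 5.17% in WT against 1.10% to 4.23% in G12D, 1.61% to 4.01% in G12D/E2-KO and 12.9% to 13.8% in E2-KO (log2 0.55, adjusted p 0.458). The log2 change was 1.05 without either WT library, 0.75 without either E2-KO, 0.13 without either G12D and 0.28 without either G12D/E2-KO library, and it turned to -0.40 without both NRas genotypes. Early erythroid-like cells were lower at T2 in WT (18.5% and 14.8%) and higher in E2-KO (16.6% and 20.2%), G12D (8.02% and 15.9%) and G12D/E2-KO (5.78% and 10.9%). HSC/MPP-like cells made up 10.0% and 8.61% in WT, 8.88% and 8.59% in E2-KO, 11.9% and 6.97% in G12D, and 10.2% and 13.8% in G12D/E2-KO (log2 -0.15, adjusted p 0.712). In the other 6 classes adjusted p ran from 0.486 to 0.712. Without either WT library 2 classes passed the threshold, B lymphoid-like and dendritic cell-like, and with the tables as deposited 1 did, dendritic cell-like.

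**Figure D3:**
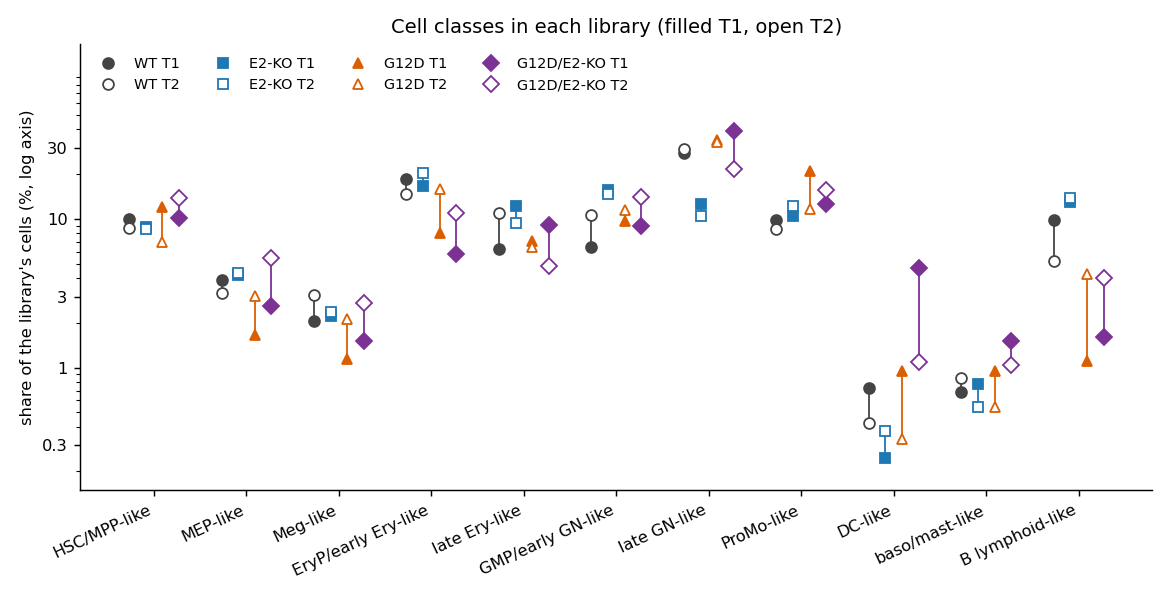
Share of a library's cells in 11 cell classes (vertical log axis, percent), with filled symbols for T1 and open symbols for T2 of the same genotype joined by a line. Megakaryocyte-like cells are higher at T2 in each genotype, and dendritic cell-like cells reach 4.70% in G12D/E2-KO T1.

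UMIs were then summed per library within the 9 classes that held at least 20 cells in each library, so that a shift in the make-up of a library weighs less. In all, 106 genes were called in at least 1 class, in 176 calls, of which 148 were lower at T2. HSC/MPP-like cells had 59 calls (0.667% of genes tested in the class, 44 lower), promonocyte-like 44 (0.468%, 35 lower), GMP/early GN-like 25 (0.273%, 24 lower), late GN-like 20 (0.246%, 18 lower), EryP/early Ery-like 13 (0.134%, all lower), MEP-like 11 (0.216%, 10 lower), Meg-like 3 (0.0696%, all lower), late Ery-like 1 (0.0193%, lower) and B lymphoid-like 0 of 5969, with 251 at an unadjusted p under 0.05 and 3 by DESeq2. Without the genotype block 4 calls were left, all of them in HSC/MPP-like cells. DESeq2 gave 16 calls in HSC/MPP-like and 20 in promonocyte-like cells, which turns the order of these classes. Without both NRas genotypes HSC/MPP-like cells had 16 calls, promonocyte-like 8, GMP/early GN-like 6, late GN-like 4 and Meg-like 26, of which 25 were lower. In HSC/MPP-like cells there were 27 calls without either G12D library and 210 without E2-KO T1, while in promonocyte-like cells there were 157 without E2-KO T2 and 0 without G12D T1. Leaving out an E2-KO library also raised the counts to as many as 156 in GMP/early GN-like, 96 in EryP/early Ery-like, 51 in MEP-like, 37 in late GN-like, 18 in late Ery-like and 16 in B lymphoid-like cells, and leaving out a G12D library lowered them to 8, 6, 6 and 10 in the first 4 of these.

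HSC/MPP-like cells held the largest share of interferon genes called. Of the 36 list members tested there, 10 fell (against 0.667% of all genes in the class): Ifit1, Isg15, Usp18, Ifi44, Samd9l, Rtp4, Xaf1, Ifi203, Ifitm3 and Ly6a. Isg15 stood at 40.8 and 15.8 CPM of the class in WT, 19.3 and 13.4 in E2-KO, 40.6 and 10.9 in G12D, and 61.4 and 23.8 in G12D/E2-KO (log2 -1.32, SE 0.21, adjusted p 8.45e-05). Ly6a (Sca-1), the surface antigen used to sort mouse stem cells and itself induced by interferon, stood at 53.8 and 27.7 CPM in WT, 52.0 and 26.0 in E2-KO, 69.3 and 19.2 in G12D, and 98.0 and 23.4 in G12D/E2-KO (log2 -1.51, SE 0.19, adjusted p 3.99e-06). For Ly6a every T2 library lay below every T1 library, and the call held under each of the 8 leave-outs and without the block (adjusted p 0.00475). Ifit1 in this class stood at 19.6 and 6.2, 17.8 and 2.1, 28.6 and 5.5, and 26.6 and 11.9 CPM in the same order, so G12D/E2-KO T1 did not stand apart from the other T1 libraries here. All 36 members had a log2 change below 0, the median was -0.65 against -0.01 over all genes of the class, and 26 were lower at an unadjusted p under 0.05 (6.16% of all genes). Without both NRas genotypes the median was -0.49 and 15 of 35 were lower at that p. Immediate early genes were lower in this class too over the 4 genotypes, with 7 of 15 at that p, 0 higher and a median of -0.40. Genes of other cell types moved in the same class. Of the 11 secondary and tertiary granule genes tested 8 fell too (median -0.80), a larger share than that of the interferon list. Siglech, a dendritic cell marker, had the largest fall called in the class (log2 -2.50). In WT the class joined 280 cells whose next list was dendritic cells and 200 cells, led by Prg2 and Cpa3, whose next list was basophils and mast cells. The part of these other cell types in the calls of this class was not tested.

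The list was also followed in the other classes, whose tested members differ, and the classes were not tested against each other. Its median log2 change was -0.65 in EryP/early Ery-like, -0.64 in late Ery-like, -0.60 in promonocyte-like, -0.58 in late GN-like, -0.42 in GMP/early GN-like, -0.41 in MEP-like, -0.30 in B lymphoid-like and -0.19 in Meg-like cells. Members at an unadjusted p under 0.05 and lower numbered 24 of 36 in EryP/early Ery-like, 22 of 31 in promonocyte-like and 22 of 35 in late GN-like cells, against 3.97%, 5.70% and 4.91% of all genes there. The counts were 18 of 34 in GMP/early GN-like (4.51% of all genes), 15 of 25 in late Ery-like (3.23%), 8 of 19 in MEP-like (2.77%), 7 of 21 in B lymphoid-like (2.43%) and 1 of 10 in Meg-like cells (2.37%), and 0 members were higher at that p in any of the 9 classes. The medians of these 8 classes ran from -0.12 to -0.46 without both NRas genotypes. By adjusted p 0 members were called in B lymphoid-like and late Ery-like cells. The summed level was lower at T2 in 4 of 4 genotypes in each class but the B lymphoid-like, where WT went from 2981 to 3096 CPM. The excess of G12D/E2-KO T1 was largest in late GN-like cells, at 6755 CPM against 1115 to 1515 in the other T1 libraries, and in these cells G12D/E2-KO stayed high at T2, at 3416 CPM against 736 to 1019. Much of this sum came from Ifi27l2a and Ifitm3, at 2706 and 2222 CPM in G12D/E2-KO T1. In the other T1 libraries they stood at 45.0 to 122 and 459 to 768 CPM.

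**Figure D4:**
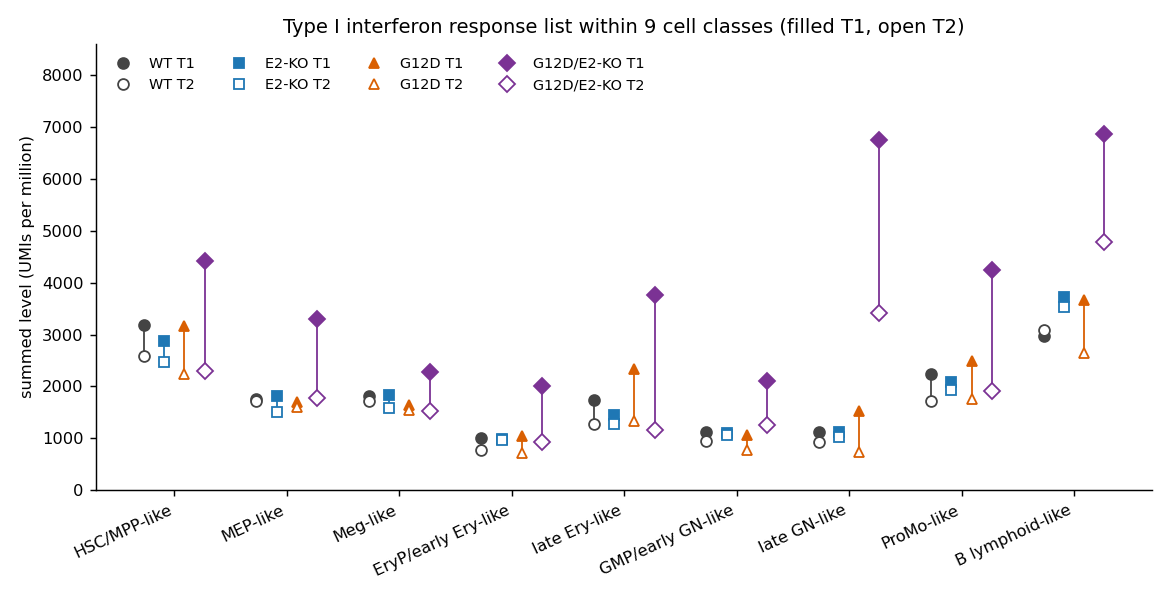
Summed level of the type I interferon list in CPM of the class (vertical axis from 0) in 9 cell classes, with filled symbols for T1 and open symbols for T2 of the same genotype joined by a line. In HSC/MPP-like cells each T2 library lies below each T1 library, and in late GN-like cells G12D/E2-KO lies at 6755 (T1) and 3416 (T2).

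Which interferon genes were called depended on the class. In GMP/early GN-like cells 6 of 34 fell, against 0.273% of all genes of the class (Isg15, Xaf1, Ifi203, Ifitm3, Ly6a and Rtp4), and in late GN-like cells 4 of 35 fell, against 0.246% (Xaf1, Irf7, Oas1a and Ifitm1). Ifit1 and Rsad2 (viperin, an antiviral enzyme) fell in EryP/early Ery-like cells, where Ifit1 stood at 4.7 and 0.8 CPM in WT, 4.5 and 1.5 in E2-KO, 4.2 and 1.0 in G12D, and 20.0 and 2.7 in G12D/E2-KO. Isg15 and Ifi204 fell in promonocyte-like cells. Ifi27l2a fell in MEP-like cells (log2 -1.61) and in Meg-like cells (log2 -2.47, SE 0.35, adjusted p 0.00169), where it stood at 68.2 and 5.93, 41.2 and 8.32, 16.7 and 6.38, and 164 and 34.5 CPM, and this call was lost in 2 of the 8 leave-outs. In late Ery-like cells Isg15 was far more abundant than in other classes, at 275.9 to 1328 CPM, and its change was not called (log2 -0.62, adjusted p 0.99).

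Some MHC class II genes fell in myeloid progenitors. Cd74, the invariant chain of MHC class II, fell in GMP/early GN-like cells with the lowest adjusted p of the class, from 36.7 to 3.04 CPM in G12D, 28.0 to 5.56 in G12D/E2-KO, 57.2 to 14.1 in WT and 17.2 to 2.00 in E2-KO (log2 -2.62, SE 0.22, adjusted p 1.15e-10). Every T2 value lay below every T1 value, the call held when any library was left out, and without both NRas genotypes the change was -2.38 (adjusted p 0.0111). H2-Aa and H2-Eb1 fell in the same class, which makes 3 of the 7 MHC class II genes tested there (against 0.273% of all genes of the class). Cd74 also fell in promonocyte-like and late GN-like cells, and H2-Aa in promonocyte-like cells, which makes 2 of 7 in the former (against 0.468% of all genes of the class). Globins, which erythroid cells make, fell in some of these classes, 3 of 4 in promonocyte-like cells (median -0.59) and 1 of 4 in late GN-like cells (median -0.49). In GMP/early GN-like cells 0 of 4 globins were called (median -0.08). The part of erythroid RNA in the other calls was not tested. The dendritic cell-like share was lower at T2 in 3 of the 4 genotypes, and the part of stray dendritic cell RNA in these values was not tested. The MHC class I gene H2-Q4 fell in GMP/early GN-like, HSC/MPP-like and MEP-like cells (log2 -0.98 to -1.72). Of the 18 MHC class I and immunoproteasome genes tested it was the 1 called in GMP/early GN-like cells, 0 were called in promonocyte-like cells, and the medians there were -0.03 and -0.05.

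Markers of late granulocytes fell in other classes too. Outside late GN-like cells 33 of 104 tests of a late granulocyte marker in a class were calls, all lower at T2, against 0.226% of the tests of all genes in those 8 classes. They belong to 11 markers, among them Lcn2, Lyz2 and S100a8 in 4 classes each. In EryP/early Ery-like cells Lyz2 stood at 195 and 101 CPM in WT, 61.4 and 44.1 in E2-KO, 247 and 129 in G12D, and 193 and 94.5 in G12D/E2-KO (log2 -0.87, SE 0.11, adjusted p 0.000308). The summed level of the whole list of 17 markers was lower at T2 in 4 of 4 genotypes in 7 of the 9 classes, for example from 2288 to 7740 CPM at T1 to 1537 to 4662 CPM at T2 in EryP/early Ery-like cells. In Meg-like cells WT T1 held 30144 CPM of these markers against 1709 to 8555 CPM in the other libraries. The share of late GN-like cells was lower at T2 in 3 of 4 genotypes, and the part of free RNA or mixed cells in these calls was not tested.

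Within late GN-like cells 1 of the 20 secondary and tertiary granule genes tested fell (against 0.246% of all genes of the class), and the median of that list was -0.13. The gene is Mmp8, the neutrophil collagenase. It stood at 137 and 56.6 CPM in WT, 22.3 and 6.60 in E2-KO, 89.4 and 28.0 in G12D, and 78.0 and 17.4 in G12D/E2-KO (log2 -1.75, SE 0.16, adjusted p 1.89e-05), with a call under each left-out library. Retnlg, a secreted resistin-like protein of neutrophils, stood at 811 and 300, 261 and 114, 457 and 173, and 1147 and 211 CPM (log2 -1.73, adjusted p 0.0394), and this call was lost in 2 of the 8 leave-outs. Ly6g, the antigen of mature neutrophils, and Lyz1 fell too (-0.76 and -0.73).

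Genes that rose were fewer. Rnaset2b, a lysosomal ribonuclease, rose in HSC/MPP-like, GMP/early GN-like and late GN-like cells by 1.05, 0.67 and 0.92 on the log2 scale. In HSC/MPP-like cells it stood at 40.8 and 57.6 CPM in WT, 29.7 and 44.3 in E2-KO, 18.0 and 65.7 in G12D, and 17.1 and 43.8 in G12D/E2-KO (edgeR adjusted p 0.00102), where every T2 value lay above every T1 value. The NRas libraries of T1 were the lowest here, and the part of their difference from the other libraries, described below, was not tested. Cirbp, the cold-inducible RNA-binding protein, rose in HSC/MPP-like, MEP-like and promonocyte-like cells. In MEP-like cells it stood at 105 and 191, 136 and 179, 92.9 and 212, and 118 and 194 CPM (log2 0.73, adjusted p 0.0287). Gsto1, a glutathione transferase, rose in HSC/MPP-like cells by 0.79 and Sdsl, a serine dehydratase-like enzyme, by 0.97 (adjusted p 0.000561 and 0.00537). Serpine2, a protease inhibitor, and Ndufa9, a complex I subunit, rose in promonocyte-like cells by 0.84 and 0.59 (adjusted p 0.0107 and 0.0280). Of these, Gsto1 kept its call in 8 of the 8 leave-outs, Rnaset2b and Sdsl in 6, Serpine2 and Ndufa9 in 3, and Cirbp in MEP-like and promonocyte-like cells in 2, and without both NRas genotypes none of these calls was left (edgeR adjusted p 0.249 or more).

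Of the 7 genes called in at least 4 classes, Hist1h2ap, Sertm1 and Gm28727 were highest in G12D T1 and G12D/E2-KO T1 in each class. In late GN-like cells, for example, Sertm1 stood at 97.2 and 100 CPM in these libraries and at 33.8 to 59.0 CPM in the other 6. In HSC/MPP-like cells Hist1h2ap stood at 154 and 187 CPM there and at 54.6 and 63.9 CPM in WT and E2-KO at T1, against 28.1 to 73.9 CPM at T2. The calls of Hist1h2ap in late GN-like and promonocyte-like cells were lost without both NRas genotypes (log2 -1.0 and -0.91, edgeR adjusted p 0.0995 and 0.0825), as was that of Sertm1 in EryP/early Ery-like cells (log2 -0.74, adjusted p 0.0631). The other 4 genes called that often, Ifitm6, Lcn2, Lyz2 and S100a8, belong to the late granulocyte markers.

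Whether the change over time differed with genotype was tested with an interaction term, with 2 libraries per status and time point. With Ezh2 status, 0 of 12308 genes were called by edgeR (266 at an unadjusted p under 0.05, 2.16%), and DESeq2 called 3. Leaving out G12D T1 gave 47 calls and leaving out G12D T2 34. With NRas status 67 genes were called (0.544%), of which 5 were among the 9 called without either G12D/E2-KO library, and there were up to 190 calls without an E2-KO library and 185 without G12D T2. Of the 67, 38 had a higher and 29 a lower change over time in the G12D genotypes. Of the 84 ribosomal protein genes tested 4 were called. Of the 46 interferon genes tested 4 were called too (Oas1a, Oas1g, Ifitm3 and Ly6a, each with the stronger drop in the G12D genotypes). By their symbols 24 of the 67 were predicted genes or pseudogenes, and how many of that type were tested was not counted, so this number has no share to be read against.

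Among the called genes shown here, the NRas libraries of T1 stood apart from the other 6. Hist1h2al, a histone H2A gene, stood at 119 and 81.8 CPM in WT and 94.5 and 93.8 in E2-KO, but at 15.5 and 96.5 in G12D and 14.3 and 141 in G12D/E2-KO (difference of log2 changes 3.12). The pseudogene Rpl21-ps4 stood at 25.0 and 16.0 CPM in G12D T1 and G12D/E2-KO T1 and at 72.2 to 113 CPM in the other 6 libraries (difference 2.38), while its parent Rpl21 stood at 2102 to 2840 CPM in all 8. Gm5426 (2.21) and Cplx2, a regulator of vesicle fusion (2.02), had the same shape. In the other direction Rpl23a stood at 877 and 730 CPM in these libraries against 152 to 253 elsewhere, Lipe, hormone-sensitive lipase, at 359 and 385 against 72.4 to 126, and Eno1, a glycolytic enzyme, at 203 and 219 against 73.8 to 113. The 64 pseudogenes with a -ps symbol summed to 4076 and 3068 CPM in these libraries and to 4819 to 8336 CPM in the others. Ribosomal pseudogenes share near-identical sequence with their parents and with each other, and the part of read assignment in these values was not tested. Lipe, Eno1 and Cplx2 are not pseudogenes. Whether the NRas libraries of T1 were counted with another annotation or software version was not tested for any of the 67 calls. Cplx2 was among the leading genes of the B lymphoid-like cluster built on all 8 libraries. B lymphoid-like cells made up 1.10% of G12D T1 and 1.61% of G12D/E2-KO T1, against 4.01% to 13.8% of the other 6 libraries. Ebf1, a marker of that class, was called too, and the part of this share in the calls was not tested. The interferon list had 19 of 46 members with a lower change in the G12D genotypes at an unadjusted p under 0.05. It had 0 with a higher one. Of all 12308 genes tested, 685 had a lower and 513 a higher change at that p, which is 9.73% in either direction. The lower change was not particular to the interferon list. Lower at that p, with 0 higher, were 9 of 21 secondary and tertiary granule genes, 4 of 9 MHC class II genes, 7 of 23 immediate early genes and 6 of 20 glycolysis genes. Of 58 clustered histone genes 14 had a higher and 2 a lower change.

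**Figure D5:**
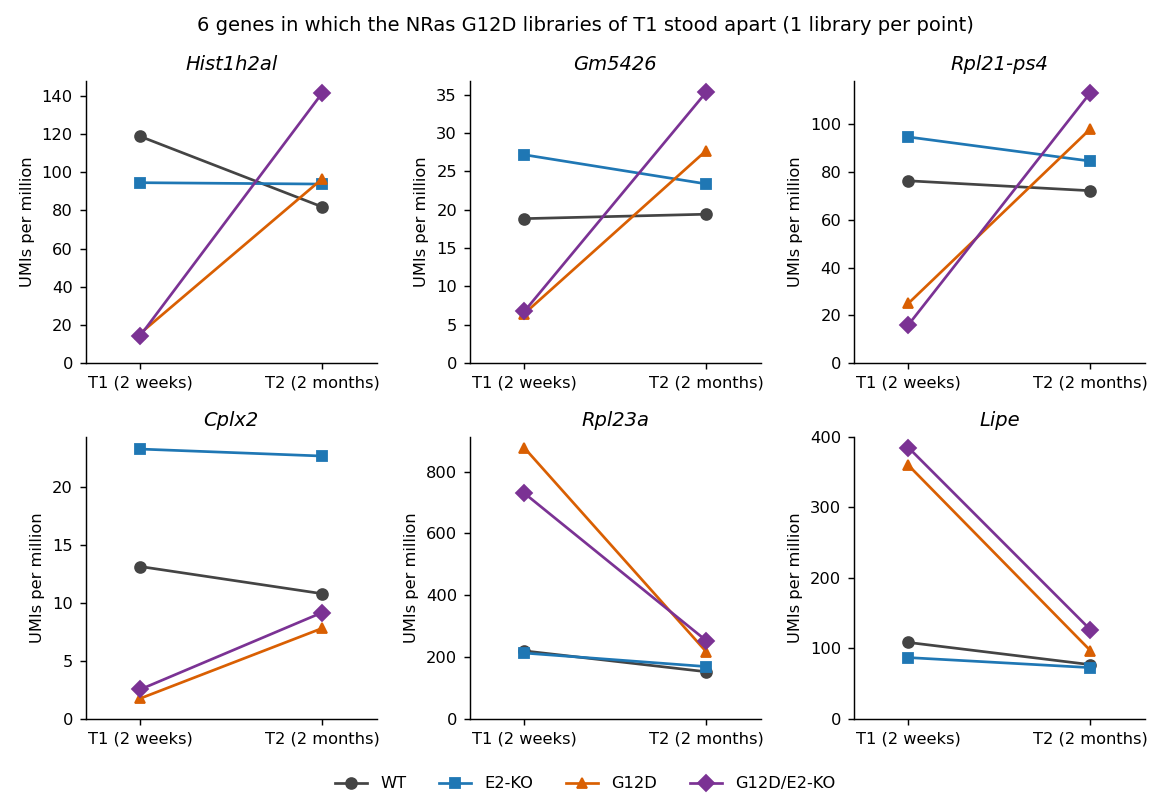
CPM (vertical axes from 0) of 6 genes at T1 and T2, with 1 point per library and a line joining the libraries of a genotype. In each panel G12D T1 and G12D/E2-KO T1 lie together and apart from WT and E2-KO, low for Hist1h2al (15.5 and 14.3), Gm5426, Rpl21-ps4 and Cplx2 and high for Rpl23a and Lipe.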

How the data were processed

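Per the labels and the study's methods, the authors processed 10x Genomics 3' reads with Cell Ranger against mm10, removed cells with over 10% mitochondrial UMIs and doublets called by Scrublet, and deposited raw UMI counts of 27998 gene names per cell; 121 names carry a suffix because a symbol repeats. No further cell filter or doublet caller was run. Cell names inside the tables count time points from T0, and time points were taken from the labels. G12D T1 cells with a cosine above 0.9 to a G12D/E2-KO T1 cell were dropped (raw UMIs, genes ranked 301 to 8300). On this scale 13 to 119 cells pass in each of the other 27 pairs of libraries too, while on log UMIs 0 do and 2896 G12D T1 cells match.

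UMIs were summed per library, and per library and class, and tested with edgeR 4.0.16 (TMM factors from 0.936 to 1.04, filterByExpr by time point, robust glmQLFit, glmQLFTest, two-sided, Benjamini-Hochberg, R 4.3.3). Genotype, taken from the labels, was the block that pairs libraries, and the fit leaves 3 residual degrees of freedom (2 with an interaction). The biological coefficient of variation was 0.151. In simulated data 100 genes were changed 2-fold and 100 others 4-fold, all drawn from genes above a set expression level. For all cells, 99% of genes changed 2-fold were recovered, with 14 false calls among 12308 genes. For the interactions with Ezh2 and with NRas status, 36% and 67% of genes changed 2-fold were recovered, with 34 and 23 false calls. The spread simulated was the one edgeR fitted, so these rates do not carry over to genes of lower level or wider spread.

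Classes came from WT cells of T1 and T2 (scanpy 1.11.5, 50 components, 15 neighbours, Leiden resolution 2) and marker lists, and mutant cells took the class of the nearest WT cell. A cluster needed 3 markers raised 1.5-fold and a margin of 0.25 over other lists, but some named clusters fell short of that margin. A cluster of 129 WT cells was named promonocyte-like at a score of 1.813 against 1.742 for GMP/early GN, beside 343 cells in the other promonocyte-like cluster. A cluster of 117 WT cells was named late Ery-like at 2.604 against 2.394 for EryP/early Ery. The comparison, the 27 gene lists and the 15 marker lists were chosen with earlier results of these data known. Named are genes called over all cells, the 3 lowest p of each list at 5 CPM or more, up to 3 called genes per class and direction at 20 CPM or more, and the 4 lowest p of an interaction; others were chosen after their values were seen, and some genes of the lists are not reported here. Gene coordinates are those of GENCODE vM21 (GRCm38).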

Additional observations from a re-analysis of the deposited data

Results flagged for a closer look

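In each of 204 groups of 4 libraries (the genotypes at a time point) the highest and the lowest value were compared with the others, and 15 groups (7.35%) held a library far from the rest. The limit used flags about 1 in 20 groups of like samples. Here the 4 libraries differ in genotype and the groups share libraries, so that rate is no measure of chance. The reason for each was not tested.

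G12D/E2-KO T1 stood above the other 3 libraries of T1 in Ifit1 (28.1 CPM against 5.82 to 8.94), Oas3 (24.7 against 6.08 to 6.53), Igtp (13.4 against 6.49 to 7.16) and the summed type I interferon list (4485 against 1634 to 1950). It also stood above them in H2-Aa (303 CPM against 15.8 to 31.7), in the summed MHC class II genes (1856 against 187 to 270) and in the share of dendritic cell-like cells (4.70% against 0.245% to 0.953%). That share was still apart in G12D/E2-KO T2, at 1.09% against 0.332% to 0.422%. At T2 this genotype was also apart in Kit (80.8 CPM against 46.0 to 51.8), Fosl2 (13.5 against 6.09 to 6.86) and Uqcrc1 (114 against 178 to 185).

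E2-KO T1 stood apart in the globins Hba-a2 (6067 CPM against 2576 to 3109) and Hbb-bh1 (47.6 against 19.2 to 20.5), and in Dusp6 (5.37 against 11.5 to 12.7). E2-KO T2 stood apart in the share of B lymphoid-like cells (13.8% against 4.01% to 5.17%).

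The change over time differed with NRas status in 67 genes by edgeR's interaction test. The differences of log2 changes of the 4 genes with the lowest p were 3.12 for Hist1h2al, 2.21 for Gm5426, 2.38 for Rpl21-ps4 and 2.02 for Cplx2.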

How the results depend on the processing

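The 2 calls over all cells became 42 with DESeq2, 51 with no filter on low counts, 9 without both NRas genotypes, and 0 without the block that pairs libraries by genotype (no replicate block), with the tables as deposited, or with all 12 libraries; leaving out a library gave 0 to 18. The Ezh2 interaction went from 0 calls to 3 (DESeq2), 14 (no filter) and 0 to 47 (leave-outs), and the NRas interaction from 67 to 300 (no filter) and 9 to 190 (leave-outs). The median count over classes, 13, became 71 with no filter, 0 without the block, 7 without both NRas genotypes and 6 to 51 in the leave-outs. Class shares past the threshold went from 0 to 1 as deposited and 0 to 2 in the leave-outs. The cause of these moves was not tested.

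Of the log2 changes tried under the alternatives, 29 turned sign, all uncalled. Ezh2 (0.00 as reported) had -0.0087 with DESeq2, -0.0082 with RLE factors, -0.0011 with globin and late granulocyte genes left out, -0.058 without the block, -0.17 without both NRas genotypes and -0.067 to 0.11 in the leave-outs. Kit had -0.031 without both NRas genotypes and -0.031 to 0.25 in the leave-outs. Without both NRas genotypes Igtp had 0.023, Dnajb9 0.0012, Btg2 0.020, Slc25a37 0.038, Ppox 0.0035, Ccl6 0.035, Tnfaip2 -0.089, Ier3 0.017 and Eif2s3y 0.015. Leave-outs gave -0.27 to 0.37 for Hba-a2, -0.22 to 0.33 for Hbb-bh1, -0.31 to 0.28 for Hba-a1 and -0.26 to 0.045 for Ddx3y. In addition, 156 values lost and 22 gained a call with their direction kept.

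Classes built another way, chosen after seeing the data, gave HSC/MPP-like cells 29 to 84 calls against 59, promonocyte-like 61 to 77 against 44, GMP/early GN-like 11 to 13 against 25, and late Ery-like 1 to 11 against 1. Meg-like cells had 1 to 12 calls against 3 and late GN-like cells 19 to 31 against 20. Dendritic cell-like and basophil and mast cell-like cells were below 20 cells in some libraries and were not fitted. With clusters of all 8 libraries a class named dendritic cell-like was fitted, with 1 call, but it also held the cluster led by Cox6a2, Ly6d, Dntt and Flt3.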
